A study of Mus musculus with 2 samples.

Results

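The AP-1 family genes Jun, Junb, Jund, Fos, Fosb, Fosl1, Fosl2, Atf3 and Batf were examined in the DHS-seq data of murine myeloid progenitor M1 cells. A row of the deposited table was taken for a member when its transcript name without the trailing number equaled the gene symbol. This gave 11 rows for all 9 genes, out of 22575 genes on chromosomes 1 to 19 and X. Jun and Jund have 2 rows each with the same windows, and for every gene the row with the most windows was used. M1 is an established line of mouse myeloid leukemia, whose immature cells mature toward macrophages when given IL-6. The labels give its source as bone-marrow and the passages as 15 to 18. Untreated cells and IL-6-treated cells, the latter after 4 to 5 days by the labels, were represented by 1 library each, and both groups are the same line grown in RPMI medium with horse serum. DHS-seq sequences the small DNA pieces that a mild DNase I digest frees from nuclei, where accessible chromatin is cut before packed chromatin. With 1 library per condition no difference has a replicate check and no p-value is given.

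AP-1 is a family of dimeric transcription factors with a basic DNA-binding part and a leucine zipper. Jun proteins pair with each other or with Fos proteins, while Fos proteins need a Jun partner. Batf pairs with Jun proteins and Atf3 with itself or with Jun proteins. Many AP-1 genes are immediate early genes, which are switched on within minutes by growth factors, cytokines and stress, and AP-1 factors are known for their part in the differentiation of monocytes and macrophages.

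What was measured is the DNase I signal on the span from start to stop codon of each gene. The signal is given as the mean and the SD over all windows of 700 bp, laid out from the start of the chromosome, that the span touches. In untreated cells 1 unit of signal was 1 read, and in IL-6-treated cells each read carried a factor of 1.03816, so values of the second library are called scaled reads. The spans of the 9 genes differ in length, from the 2 windows of Jund to the 32 windows of Batf, and levels are therefore compared per window. The median gene had a mean of 7.76 reads per window in M1 cells and 8.15 scaled reads per window in IL-6-treated cells. Every interval is an exact 95% interval for the counting of reads alone and takes each read as independent. PCR copies are not independent molecules, so an interval can be too narrow even for this pair of libraries. It says nothing about the spread within a condition. As a check of the labels, 6 of 7 myeloid genes and all 6 genes of other lineages on 2 lists were in the table. The means of these lists overlapped in M1 cells (7.86 to 46.5 against 3.09 to 22.1 reads per window) and in IL-6-treated cells (5.49 to 15.1 against 4.34 to 26.7 scaled reads per window), so coding-span signal did not tell these lineages apart.

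On NCBIM37 the genes lie on 7 chromosomes. Jun (chr4:94715725-94718913, minus strand), Junb (chr8:87500811-87502617, minus strand) and Jund (chr8:73221638-73224515, plus strand) have no intron in the transcripts used, and their counted windows hold 47.9%, 49.3% and 73.3% coding sequence. Fos (chr12:86814840-86818223, plus strand) and Fosb (chr7:19888070-19895394, minus strand) have 4 exons each, with 40.8% and 18.2% coding sequence in the windows. Fosl1 (chr19:5447703-5455945, plus strand), Fosl2 (chr5:32438845-32460204, plus strand), Atf3 (chr1:192994175-193007219, minus strand) and Batf (chr12:87027619-87050037, plus strand) were covered mainly by introns, which made up 77.8%, 88.6%, 85.6% and 95.8% of their windows. Fos and Batf are 210 kb apart on chromosome 12, and the only listed gene between them is Jdp2, another gene of this protein family. The annotated start of the gene lies inside the counted windows for Junb, Fos, Fosb, Fosl1, Fosl2 and Batf. For Jun and Atf3 it lies outside, 513 bp and 5319 bp from the nearest window. For Jund the start of the longer transcript lies 1163 bp outside and that of the shorter transcript lies inside.

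The promoter sequences show which control regions the windows cover. RefSeq promoters of 300 bases, from 250 bases before to 50 bases after the transcription start, were given for 8 of the 9 genes on GRCm38.p6, and each matched 1 place on its NCBIM37 chromosome. Counted windows hold 56 of the 300 bases of the Fosb promoter and 0 bases of those of Jun, Jund and Atf3. The promoters of Junb, Fos, Fosl2 and Batf are shown because more than 50% of their bases lie in counted windows (203, 189, 194 and 219 bases). On NCBIM37 they lie at chr8:87502598-87502897 (minus strand), chr12:86814590-86814889, chr5:32438595-32438894 and chr12:87027420-87027719 (plus strand). They are printed in the direction of transcription, and capitals mark TGACG or CGTCA, which is part of the cAMP response element, and the TATA box TATAAA.
Junb: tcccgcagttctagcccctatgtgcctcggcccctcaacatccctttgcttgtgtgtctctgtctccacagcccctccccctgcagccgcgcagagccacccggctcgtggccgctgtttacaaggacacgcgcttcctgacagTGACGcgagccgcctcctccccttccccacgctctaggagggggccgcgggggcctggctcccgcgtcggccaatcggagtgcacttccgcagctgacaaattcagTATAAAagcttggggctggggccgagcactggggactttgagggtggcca
Fos: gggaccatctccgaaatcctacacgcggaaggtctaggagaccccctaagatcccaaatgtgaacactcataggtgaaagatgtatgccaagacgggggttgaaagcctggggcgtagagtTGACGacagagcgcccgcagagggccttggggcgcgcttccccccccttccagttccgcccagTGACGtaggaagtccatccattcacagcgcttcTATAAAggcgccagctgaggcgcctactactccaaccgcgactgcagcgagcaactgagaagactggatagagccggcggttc
Fosl2: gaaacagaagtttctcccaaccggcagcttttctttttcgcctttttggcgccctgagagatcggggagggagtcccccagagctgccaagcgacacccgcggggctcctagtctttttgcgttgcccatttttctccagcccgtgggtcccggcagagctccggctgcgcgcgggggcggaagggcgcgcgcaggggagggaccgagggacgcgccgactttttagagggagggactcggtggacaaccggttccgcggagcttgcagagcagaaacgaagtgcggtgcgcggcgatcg
Batf: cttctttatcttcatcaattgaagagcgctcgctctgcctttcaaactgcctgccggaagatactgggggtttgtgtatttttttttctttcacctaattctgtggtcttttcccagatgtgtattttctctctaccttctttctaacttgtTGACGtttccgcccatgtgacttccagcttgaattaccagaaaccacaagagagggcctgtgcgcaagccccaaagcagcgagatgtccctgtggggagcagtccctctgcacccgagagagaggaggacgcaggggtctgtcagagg

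The Fos promoter held TGACG 66 and 129 bases upstream of the start and the TATA box 33 bases upstream. Junb held TGACG 106 bases upstream, with TATAAA at the RefSeq start itself. This RefSeq start lies upstream of the annotated start of Junb used above (position 87502617). Batf held TGACG 98 bases upstream. The Fosl2 promoter held none of these letters but had 32 CpG dinucleotides, against 21 in Junb, 20 in Fos and 9 in Batf. Both strands were searched, and of 32544 distinct promoters of the same length 20.9% held TGACG or CGTCA and 8.28% held TATAAA. Of the promoters not shown, that of Fosb held TGACG 60 bases upstream of the start and that of Atf3 held CGTCA 7 bases upstream. The Jun promoter held TGACATCA, known as the site through which Jun acts on its own gene, 45 bases upstream of the start (3.37% of all promoters held it on either strand). The AP-1 site TGACTCA or TGAGTCA (5.19% of all promoters), the full element TGACGTCA (1.80%), the STAT site TTCNNNGAA (8.33%) and the CArG box, to which serum response factor binds (1.64%), were found in none of the 8 promoters. TGACG overlaps the full element. These matches describe letters in a window of 300 bases only. The 3 motifs that were found had been chosen after the promoters were read.

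In untreated M1 cells the Jun genes had the highest mean DNase I signal per window of the family. These are means over spans of unlike length, and the order of single windows can differ. The strongest window could hold up to 188 reads in Fosb and 208 in Batf. It held 95 in Jund, at most 186 in Jun and at least 214 in Junb. Junb had 527 reads on 3 windows, which averaged 176 per window (SD over its windows 66.0). Jun had 362 reads on 3 windows, a mean of 121 (SD 56.6), and Jund had 188 reads on 2 windows, a mean of 94.0 (SD 1.41). These means were at the 99.3, 98.8 and 98.3 percentiles of all genes. Fosb followed with 341 reads on 8 windows, a mean of 42.6 reads per window (SD 59.1), and Fos with 166 reads on 4 windows, a mean of 41.5 (SD 43.5). Batf had 664 reads on 32 windows, a mean of 20.8 (SD 34.2), and Atf3 had 207 reads on 10 windows, a mean of 20.7 (SD 10.9). The Fos-related genes Fosl2, with 207 reads on 25 windows and a mean of 8.28 (SD 4.88), and Fosl1, with 81 reads on 12 windows and a mean of 6.75 (SD 3.96), were near the median of all genes.

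The highest mean of the family in M1 cells was 26.0 times the lowest. Neighbors in this order differed beyond counting error except for 3 pairs. Fosb and Fos had a ratio of 1.03 (0.851 to 1.24), Batf and Atf3 a ratio of 1.00 (0.856 to 1.18), and Fosl2 and Fosl1 a ratio of 1.23 (0.944 to 1.61). Jun was 1.28 times Jund (1.07 to 1.54) and Junb 1.46 times Jun (1.27 to 1.67).

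After IL-6 the means of the members lay closer together. Junb was again highest, with 122 reads and a mean of 42.2 scaled reads per window (SD 21.4), followed by Jund with 62 reads and a mean of 32.2 (SD 10.3) and Jun with 76 reads and a mean of 26.3 (SD 11.2). Atf3, which is known as a stress-induced gene, was in place 4 with 200 reads and a mean of 20.8 (SD 14.2). Fos had 79 reads and a mean of 20.5 (SD 7.41), Fosb 123 reads and a mean of 16.0 (SD 11.8), and Batf 475 reads and a mean of 15.4 (SD 14.3). Fosl2 had 214 reads and a mean of 8.89 (SD 4.70) and Fosl1 95 reads and a mean of 8.22 (SD 4.09). The highest mean was now 5.14 times the lowest. Of the 8 neighboring pairs in this order, the only one that differed beyond counting error was Batf over Fosl2, with a ratio of 1.73 (1.47 to 2.05). Atf3 thus went from place 7 to place 4, with means of 20.7 and 20.8.

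**Figure D1:**
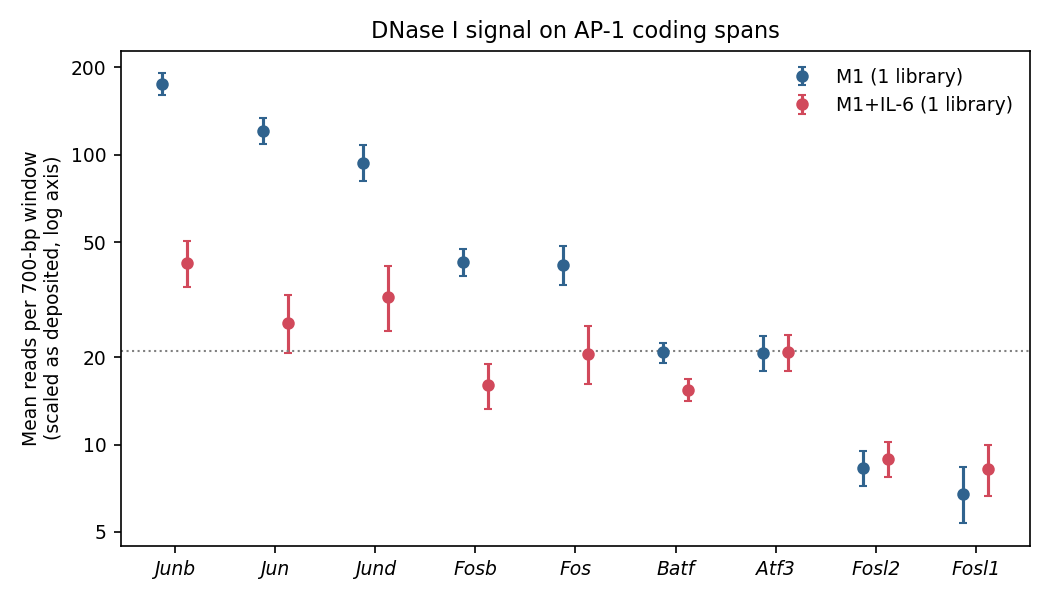
Mean reads per 700-bp window (log axis, scaled as deposited) on the coding spans of the 9 AP-1 genes in M1 cells without and with IL-6 (1 library each). Bars are exact 95% counting intervals and the dotted line marks 21 reads. Junb, Jun, Jund, Fosb and Fos lie above the line in M1 cells, and the means of Junb and Fosl1 are 176 and 6.75 there and 42.2 and 8.22 in IL-6-treated cells.

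The first comparison asks how the signal on each gene differed between the libraries, with the scaling of the table. Jun, which encodes the main partner of Fos proteins, had 76 reads after IL-6 against 362 before, which is a ratio of 0.218 (0.168 to 0.280), or -2.19 on the log2 scale. Junb, which is known as a target of IL-6 signaling through STAT3, had 122 against 527 reads, with a ratio of 0.240 (0.196 to 0.293), or -2.05 in log2. Jund, the most broadly expressed Jun gene, had 62 against 188 reads, with a ratio of 0.342 (0.253 to 0.458), or -1.54 in log2. The windows of Jund also hold Gm11175, a predicted gene that overlaps it, and their reads cannot be assigned to either. With the scaling of the table all 3 Jun genes were thus lower by more than 2-fold, while the scaling by strong genes described further on leaves Jun and Junb lower by less than that and puts 1 inside the interval of Jund. Over their 8 windows together the ratio was 0.251 (0.218 to 0.287).

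By their ratios the Fos genes formed 2 pairs. Fosb had 123 against 341 reads, with a ratio of 0.374 (0.302 to 0.462), or -1.41 in log2. Fos itself, the classical immediate early gene, had 79 against 166 reads, with a ratio of 0.494 (0.373 to 0.650). Its log2 ratio of -1.01 was just past the 2-fold limit, and the interval held values on both sides of it. With the scaling of the table the Fos-related genes showed no difference beyond counting error, with a ratio of 1.22 (0.896 to 1.66) for Fosl1, from 81 to 95 reads, and 1.07 (0.882 to 1.31) for Fosl2, from 207 to 214 reads. Of the ATF-like genes, Atf3 had 200 against 207 reads and a ratio of 1.00 (0.822 to 1.22). Batf, which is known for its part in lymphocytes and dendritic cells, had 475 against 664 reads, with a ratio of 0.743 (0.659 to 0.837), or -0.43 in log2. With the scaling by strong genes the intervals of Fosl1, Fosl2, Atf3 and Batf lie above 1, which turns the direction of Batf, those of Fos and Fosb hold 1, and the ratio of Fos turns to 1.18.

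In all, 5 of the 9 genes were lower after IL-6 by 2-fold or more and 0 were higher by as much with the scaling of the table, against 0 and 3 with the scaling by strong genes. The background is formed by 18473 genes whose reads exceeded 21 in M1 or, scaled, in IL-6-treated cells, and 13.4% of these were lower by 2-fold or more while 1.69% were higher. With the scaling by strong genes these shares were 0.65% and 64.9%, so that the 3 of 9 members that were then higher are a smaller share than that of all genes. All 9 members passed this limit on reads. The median log2 ratio of the members was -1.01, against 0.03 for all genes. For 4 members, Jun, Junb, Jund and Fosb, the whole interval of the ratio lay below 0.5, and it lay above 0.650 for Batf, Atf3, Fosl1 and Fosl2. One common factor between the libraries cannot change the order of these ratios.

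**Figure D2:**
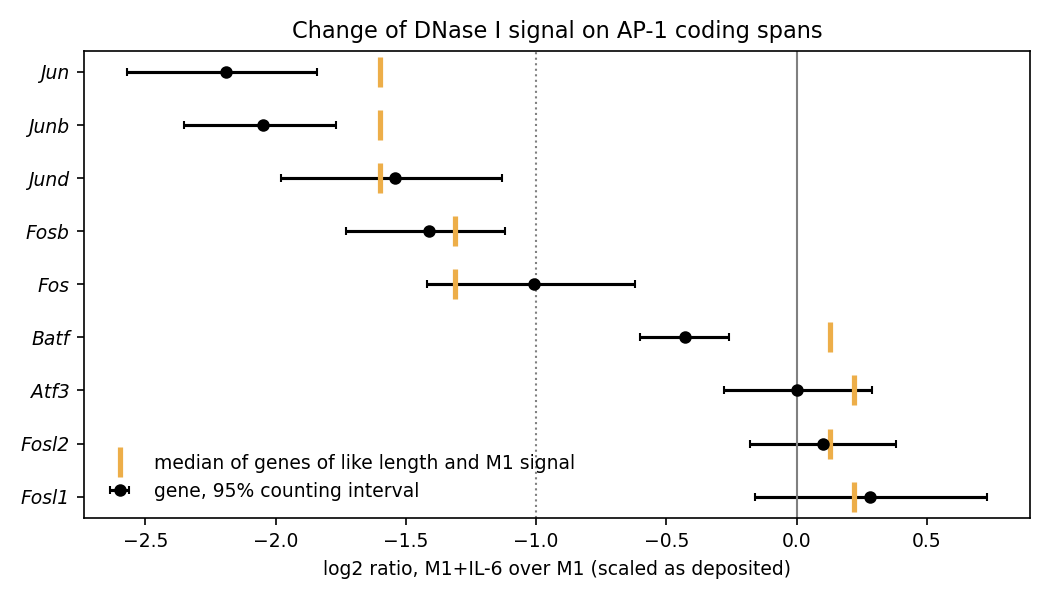
Log2 ratio of IL-6-treated to untreated M1 cells (horizontal axis, scaled as deposited) for the 9 AP-1 genes, with exact 95% counting intervals. The solid line marks no change and the dotted line a 2-fold fall. Vertical bars mark the median of genes of like length and on the same side of 21 reads per window in M1 cells. Jun and Junb, at -2.19 and -2.05, lie left of their bar at -1.60. With the scaling by strong genes described in the text every point and bar moves to the right by 1.26, and Fos and Batf change sign.

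These ratios were read against genes of similar length and signal, since 1985 of 3260 genes with more than 21 reads per window in M1 cells were at least 2-fold lower with the scaling as deposited. Such a background uses the M1 value, which is also in the ratio, and is a description. Jun, Junb and Jund have 1 to 3 windows and more than 21 reads per window in M1 cells, and of 719 genes of this kind 70.9% were at least 2-fold lower, with a median log2 ratio of -1.60. Fos and Fosb belong to 1335 genes of 4 to 12 windows with more than 21 reads per window, of which 70.1% were at least 2-fold lower, with a median of -1.31. Fosl1 and Atf3 belong to 2875 genes of 4 to 12 windows below this limit (3.93% at least 2-fold lower, median 0.22), and Fosl2 and Batf to 11214 genes of over 12 windows below it (3.01%, median 0.13). The 5 members that were at least 2-fold lower are thus the 5 whose M1 mean exceeded 21 reads per window, and most genes of their length and signal were lower by as much.

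Atf3 and Batf, at 20.7 and 20.8 reads per window, are just below that limit. A narrower background, chosen after seeing the data, takes the genes of the same length class whose M1 mean was within 10% of the member's own. Beside these, the log2 ratio of Junb stood at the 51.4 percentile (37 genes, median -2.07) and Jun at the 27.0 percentile (37 genes, median -1.82). Jund stood at the 92.3 percentile (52 genes, median -1.85). Its log2 counting interval, from -1.98 to -1.13, holds that median, and among the 719 genes of its wider background Jund was at the 53.3 percentile. Fosb was at the 44.1 percentile of 186 genes (median -1.36) and Fos at the 78.0 percentile of 186 genes (median -1.34). Atf3 was at the 76.6 percentile of 261 genes and Batf at the 64.0 percentile of 570 genes, whose medians were -0.47 and -0.63. Fosl1 and Fosl2 were at the 42.1 and 51.6 percentiles. The lowest percentile of the 9 was that of Jun.

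**Figure D3:**
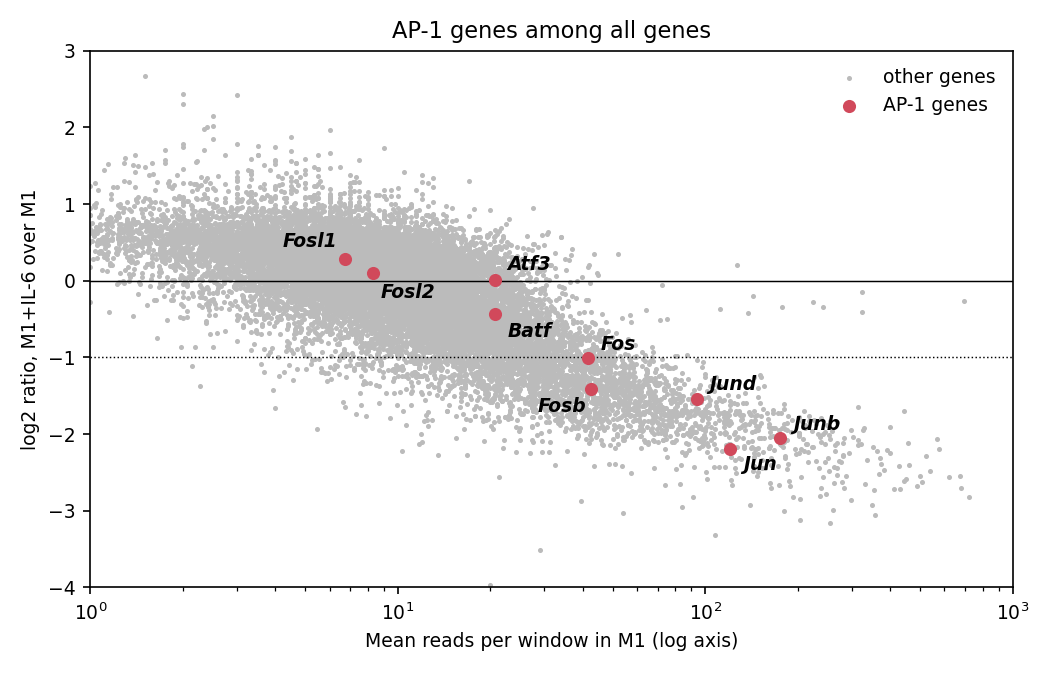
Log2 ratio of IL-6-treated to untreated M1 cells (scaled as deposited) against the mean reads per window in M1 cells (log axis) for 18473 genes, with the AP-1 genes marked. The axes leave out 119 genes, and the dotted line marks a 2-fold fall. The strong genes Jun, Junb and Jund lie within the falling right side of the cloud, and Fosl1 and Fosl2 near the line at 0. With the scaling by strong genes the whole cloud moves up by 1.26.

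The scaling between the libraries decided which members count as lower. Without the factor of the table, with equal totals over coding spans, or with the median of all genes at 0, log2 ratios moved by at most 0.05, and 5, 4 and 5 members were at least 2-fold lower. Fos is the member that crossed the 2-fold limit. When the median of 1194 strong genes, those with more than 21 reads per window in both libraries, was set to 0 instead, every log2 ratio rose by 1.26. Jun and Junb were then still lower than in M1 cells, with ratios of 0.521 (0.402 to 0.669) and 0.575 (0.468 to 0.701). The intervals of Jund, at 0.819 (0.605 to 1.10), Fosb, at 0.896 (0.723 to 1.10), and Fos, at 1.18 (0.893 to 1.55), held 1. Those of Batf, Atf3, Fosl2 and Fosl1 lay above 1, with ratios of 1.78, 2.40, 2.57 and 2.91. Jun and Junb are the 2 members that were lower, and beyond counting error, under each of the 5 scalings that were run. The genes of like length and within 10% of their M1 means had medians of -1.82 and -2.07 with the scaling of the table. These medians also stay below 0 after a rise of 1.26.

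**Figure D4:**
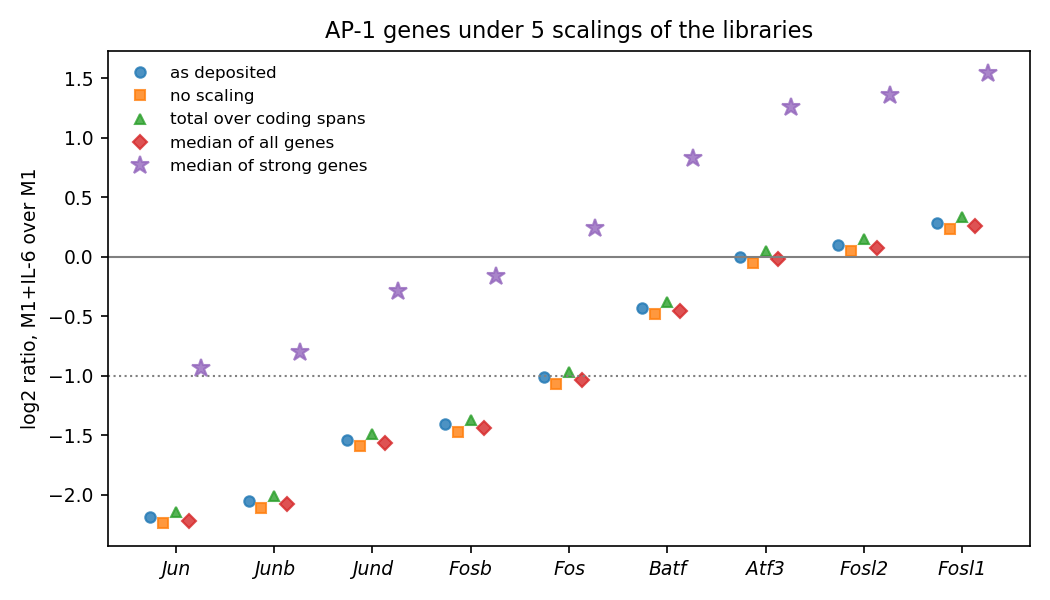
Log2 ratio of IL-6-treated to untreated M1 cells for the 9 AP-1 genes under 5 scalings of the libraries, 1 symbol for each scaling. The solid line marks no change and the dotted line a 2-fold fall. Stars, which set the median of 1194 strong genes to 0, lie 1.26 above the table's own scaling, with Jun at -0.94, Junb at -0.80 and Fos at 0.24.

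The mean and SD of a span of few windows together allow only a few sets of reads per window, without saying which window is which. In M1 cells Jund could only hold 95 and 93 reads in its 2 windows, and in IL-6-treated cells only 38 and 24 reads, which are 39.5 and 24.9 scaled reads. The signal of Jund was thus nearly even across its coding span in M1 cells. Both windows were above 21 reads, the limit that the study's methods use for a hypersensitive site, in both libraries. Jun held either 186, 89 and 87 reads or 179, 117 and 66 reads in M1 cells, and 33, 30 and 13 reads in IL-6-treated cells. Junb held either 226, 200 and 101 reads or 221, 206 and 100 reads in M1 cells, and 55, 50 and 17 reads in IL-6-treated cells. For both genes all 3 windows were above 21 reads in M1 cells and 2 of the 3 after IL-6 with the scaling of the table, while with the scaling by strong genes all 3 were above 21 in both libraries. With the scaling of the table, the weakest window of Jun, Junb or Jund in M1 cells had more reads than the strongest window of the same gene after IL-6. With the scaling by strong genes this did not hold for Junb and Jund, whose strongest windows after IL-6 then stood at 137 and 94.4. For Jun, then at 82.0, it held with 1 of the M1 sets, whose weakest window had 87 reads, and not with the other, whose weakest had 66.

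Fos differed from the Jun genes in that its signal was concentrated. In M1 cells 8 sets of reads could give its mean and SD, with 83 to 105 reads in the strongest window and 0 to 8 in the weakest, so that 2 or 3 of the 4 windows were above 21 reads. In IL-6-treated cells 5 sets were possible, with 26 to 30 reads in the strongest window and 10 to 14 in the weakest, and 1 or 2 windows were above 21 scaled reads, while with the scaling by strong genes all 4 were. The strongest window of Fos was therefore lower after IL-6 in every combination of these sets, also with the scaling by strong genes, where it reached at most 74.5. The weakest window held more reads after IL-6 in every combination. For longer spans only bounds can be given. The strongest of the 8 windows of Fosb held 64 to 188 reads in M1 cells and 20.8 to 44.6 scaled reads after IL-6. These bounds do not overlap, but with the scaling by strong genes, which gives 49.7 to 107, they do. That of Batf held 27 to 208 reads and 18.7 to 93.4 scaled reads, and that of Atf3 25 to 51 reads and 26.0 to 60.2 scaled reads, bounds that overlap. In Fosl1 no window could exceed 19 reads in M1 cells or 20.8 scaled reads after IL-6, so none of its 12 windows, which include the start of the gene, passed 21 in either library with the scaling of the table, while the scaling by strong genes puts its strongest window after IL-6 at 24.8 to 49.7.

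**Figure D5:**
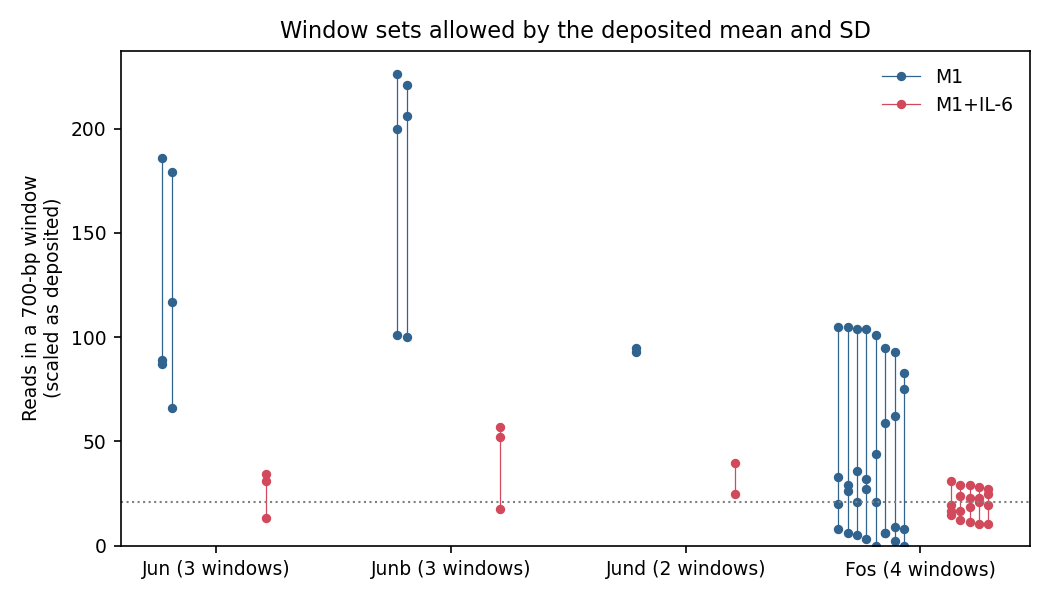
Reads in each 700-bp window (scaled as deposited) of Jun, Junb, Jund and Fos that the deposited mean and SD allow, in M1 cells and in IL-6-treated M1 cells. Each joined column of points is 1 possible set, and the dotted line marks 21 reads. The 2 windows of Jund are at 95 and 93 reads in M1 cells, while the strongest window of Fos is at 83 to 105 and its weakest at 0 to 8. With the scaling by strong genes the points of IL-6-treated cells would lie 1.26 higher on the log2 scale.

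The members also differed in base composition, which the choice of genes did not use. CpG dinucleotides are rare in most of the genome and frequent in CpG islands, which mark many promoters. The ratio of observed to expected CpG in the counted windows was 0.926 for Jund, 0.813 for Jun and 0.762 for Junb, against a median of 0.230 over all genes. It was 0.539 for Fos and 0.531 for Fosb, 0.365 for Fosl1, 0.276 for Fosl2, 0.269 for Batf and 0.193 for Atf3. The 5 genes with CpG ratios over 0.5 are those that were at least 2-fold lower with the scaling of the table. They are also the 5 members with more than 21 reads per window in M1 cells. Over the background genes, the 200 genes with a CpG ratio of 0.8 or more had a median log2 ratio of -1.86. The 432 genes from 0.6 to 0.8, where Junb falls, had a median of -0.79, against -2.05 for Junb itself. The 1221 genes from 0.4 to 0.6 had one of -0.74. The 11070 genes from 0.2 to 0.4 had one of -0.08, and the 5550 genes below 0.2 one of 0.29. The signal in M1 cells rose with the CpG ratio too. From the lowest to the highest CpG ratios, the median gene of each group had 5.4, 10.8, 20.5, 27.0 and 90.8 reads per window there. The part of base composition in the members' ratios was not tested, nor was it separated from that of the signal in M1 cells.

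The genes next to the members along the chromosomes are given as local background. Hook2 and Prdx2, which flank Junb at 12.3 and 3.31 kb, had log2 ratios of -1.65 and -0.74. Lsm4, 20.6 kb from Jund, had a log2 ratio of -1.86 and Pde4c on its other side 0.12. Jdp2, between Fos and Batf, went from 617 to 622 reads, a log2 ratio of 0.07, and the outer neighbors Tmed10 of Fos and Mfsd7c of Batf had log2 ratios of -0.71 and 0.52. Those of Jun, Mysm1 and Fggy, had -0.32 and 0.03, and those of Fosb, Rtn2 and Ercc1, had -0.68 and -0.83. Fosl2 lies between Gm10463 and Plb1, at 0.11 and 0.63. Atf3 lies between Fam71a, which was higher by 1.00 with 33 and 64 reads, and Nenf, at -1.17. Ccdc85b, only 1.48 kb from Fosl1, went from 168 to 34 reads, a log2 ratio of -2.23, against 0.28 for Fosl1. AI837181 on the other side of Fosl1 had -1.38. Ccdc85b and AI837181 had 84.0 and 52.7 reads per window in M1 cells, against 6.75 for Fosl1. The other neighbors below -1, Hook2, Lsm4 and Nenf, had 60.4, 185 and 36.6 there, and Prdx2, at -0.74, had 30.6. All these log2 ratios are with the scaling of the table.

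Other genes of the AP-1 pathway were described from lists. Of 10 other genes of related basic leucine zipper proteins, 0 were at least 2-fold lower or higher, and the median log2 ratio was 0.15. The lowest was Mafg, a small Maf protein, from 135 to 68 reads (log2 ratio -0.93, with an interval of the ratio from 0.385 to 0.705). Of 11 genes of MAP kinases, which phosphorylate Jun and Fos proteins or act upstream of those that do, 1 was at least 2-fold lower and 0 higher, with a median of -0.24. The one that was lower was Map2k7, a kinase of the JNK pathway, from 907 to 311 reads (-1.49). The highest was Mapk10, from 1110 to 1432 reads (0.42). Of 7 genes that control Fos transcription or Jun turnover, 0 were changed 2-fold in either direction and the median was -0.47. Cops5, a Jun-binding subunit of the COP9 signalosome, was lowest, from 218 to 119 reads (-0.82), and Fbxw7, part of a ubiquitin ligase that acts on Jun, highest, from 601 to 743 reads (0.36). Of these lists 0 genes were at least 2-fold lower with the scaling by strong genes. At least 2-fold higher were then 8 of the 10, 6 of the 11 and 2 of the 7, against 64.9% of all genes.

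The other immediate early genes were the list most like the Jun genes and Fos in these values. Of 10 genes 7 were at least 2-fold lower and 0 higher, with a median log2 ratio of -1.24, while with the scaling by strong genes 0 were lower and 2 higher. They were Ier5, Ier2, Myc, Egr2, Dusp1, Zfp36 and Ier3, and these 7 are also the list's only genes with more than 21 reads per window in M1 cells. Of all genes 13.4% were lower by as much, and of all genes with more than 21 reads per window in M1 cells 60.9%. Ier5 was lowest, from 195 to 49 reads (-1.93), and Ier2 went from 384 to 105 reads (-1.81). Egr3, with 39 and 48 reads, was highest at 0.35. The scaling by strong genes moves the medians of the 4 lists to 1.40, 1.02, 0.79 and 0.01 in the order given here.

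Genes with the most similar pair of signals were sought for each member among genes with the same number of windows, by distance in the log2 means of both libraries. For Jun it was Sdf2l1, with 359 and 79 reads, at a distance of 0.057 among 1528 genes. For Junb it was Eif1, with 487 and 119 reads, and for Fos Psmb4, with 168 and 79 reads. For Jund it was Gm11175, which has the same windows, and next Agrp, with 185 and 61 reads. For Fosb it was 2400001E08Rik, for Fosl1 Decr2, for Fosl2 Blvra, for Atf3 Nr2f6 and for Batf Map3k14, all within 0.150 on the log2 scale. These likenesses rest on 2 libraries only.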

How the data were processed

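DNase I hypersensitivity was measured in M1 cells without and with IL-6, by 1 library each. The authors trimmed the reads, used BWA to place them on NCBIM37 and Seqmonk to summarize them. Tool versions are not given in the sources used here. The deposited signal values are the mean and SD over all 700-bp windows overlapping a transcript's coding span. The span of all 11 member rows equals that of GENCODE M1. Another column held no values.

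Whole reads were recovered as mean times windows over the value of 1 read, which is 1.0 in M1 cells and 1.03816 in IL-6-treated cells. All 55432 rows came out within 0.05 reads of a whole number. No source names this factor, which was kept. Reads summed over the genes' spans were 9326423 and 8703769, with overlapping genes counted more than once. Log2 ratios add 0.5 reads to each library, and a gene counts as changed at 2-fold or more when it has more than 21 reads in either library. Intervals are Clopper-Pearson for ratios and exact Poisson for means, and cover counting error only, since PCR copies are not independent molecules. Sets of reads per window were all whole numbers that give the mean and SD. The scripts were tested on simulated windows. No test between libraries was possible.

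All 9 members are named. Of each related list the genes with the lowest and highest log2 ratio are named, and the gene most like each member. An item that this rule would name is not reported here. Other names, such as neighbors on the chromosome and the lower immediate early genes, were picked with their values in view. The members and lists were chosen with earlier results of these data known. Promoter sequences are from RefSeq (GRCm38.p6). Signal outside the listed spans is not analyzed here. The scripts ran under Python 3.11.15 (scipy 1.17.1, numpy 2.4.6, pandas 2.3.3), with matplotlib 3.10.9 for plots and pysam 0.24.0 for sequence.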

Additional observations from a re-analysis of the deposited data

How the results depend on the processing

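For 17 results 101 values were recomputed, and 83 of them stayed within the counting interval of the reported value or within 1.5 times the reported number. The other 18 were all obtained with the median of strong genes set to 0, except 2. With that scaling the median log2 ratio of the AP-1 genes was 0.24 in place of -1.01, 0 members were at least 2-fold lower in place of 5, and 3 were at least 2-fold higher in place of 0. Fos (0.24 in place of -1.01), Batf (0.83 in place of -0.43) and the medians of the other immediate early genes (0.01 in place of -1.24), the MAP kinase genes (1.02 in place of -0.24) and the regulators of Fos and Jun (0.79 in place of -0.47) changed sign. Over all genes, 120 were then at least 2-fold lower in place of 2475 and 11990 at least 2-fold higher in place of 313. This scaling moves every log2 ratio by 1.26 by its construction, and which scaling is right was not tested. The 2 exceptions were the median of the MAP kinase genes, 0.12 in place of -0.24 when the row with the fewest windows stood for each gene, and the order of the members. When ordered by the most reads that a window could hold, 5 of the 9 members kept their place. Adding 5 reads or using equal totals gave 4 members at least 2-fold lower, since Fos then had a log2 ratio of -0.97. A fold of 1.5 and no filter on reads gave 5. No paired analysis was possible because there is 1 library per condition and no test. The depth limits Fosl1 most, whose 81 and 95 reads allow a ratio from 0.896 to 1.66.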
